A study of Homo sapiens with 2 samples.

Results

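The set described here is the stacks of small RNA reads over snoRNA and scaRNA genes, in a list of reads from Argonaute pull-downs. The labelled libraries come from HEK293 cells, and what else the list pools is not known here. A stack is a stretch of the genome covered by overlapping reads. A stack was taken when its annotation held a snoRNA item and neither a miRNA precursor, a tRNA, an rRNA nor the mitochondrial chromosome. This gave 498 of 502547 stacks (0.0991%) under 246 gene names, on 23 chromosomes. Of 511 stacks with a snoRNA item, 13 were left out because a miRNA precursor is also named there.

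Cells of the human embryonic kidney line HEK293, in the T-Rex strain, expressed FLAG-tagged AGO2 or FLAG-tagged AGO3. The tag was pulled down on magnetic beads and the small RNA that came with it was sequenced, in 1 library per protein. The labels name neither a promoter for the tagged proteins nor a clone, and no pull-down from untagged cells was analysed here. The stack list names no library and does not separate AGO2 from AGO3, and is taken here as a pool. Each stack thus has 1 value, with no replicate and no test. A library support field of the list stands at 1 for all 502547 stacks, and what it counts was not examined here. The list holds 68649476 reads, against 6674064 in the AGO2 and 4667236 in the AGO3 library of the miRNA tables. These libraries alone therefore cannot make up the pool if each read was counted once. What else was pooled is not known here. Intervals given for shares of reads are exact Clopper-Pearson 95% intervals. Reads carry no molecular identifier and are not independent molecules, so these intervals cover counting error only.

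Small nucleolar RNAs guide chemical changes of other RNAs and mostly come from introns of host genes. Those of the H/ACA class fold into hairpins and guide the change of uridine to pseudouridine, and those of the C/D class guide methylation of the ribose. Small Cajal body RNAs (scaRNAs) carry the same boxes and act on spliceosomal snRNAs in Cajal bodies. Fragments of snoRNAs that are cut by Dicer and held by Argonaute like a miRNA have been described, among them one from ACA45, and some miRBase entries lie in snoRNA genes.

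No file used here holds the sequence of a snoRNA in the set. Mature miRNAs of the entries that lie in snoRNA or scaRNA genes are held by the RefSeq miRNA table (assembly GRCh38.p14), for 6 of the 7 entries named in the stacks that were left out. The following 6 come from the 3 entries with the most stack reads, and are shown because these genes held nearly all reads that went to a miRNA entry. Capitals mark the seed, bases 2 to 8.
hsa-miR-664a-5p, in SNORA36B: aCUGGCUAgggaaaaugauuggau
hsa-miR-664a-3p, in SNORA36B: uAUUCAUUuauccccagccuaca
hsa-miR-664b-5p, in SNORA36A: uGGGCUAAgggagaugauugggua
hsa-miR-664b-3p, in SNORA36A: uUCAUUUGccucccagccuaca
hsa-miR-6516-5p, in SCARNA16: uUUGCAGUaacaggugugagca
hsa-miR-6516-3p, in SCARNA16: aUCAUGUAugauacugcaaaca
The table gives 9 mature sequences for the 6 entries, with 9 distinct seeds, so that none of them shares a seed with another.

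The set held 136650 of 68649476 stack reads, a share of 0.199% (0.198 to 0.2001). Outside miRNA precursors its share was 0.868% (0.864 to 0.873) of 15736680 reads. SCARNA15, also named ACA45, held 98322 of the reads of the set, which is 71.95% (71.71 to 72.19). Without its 2 stacks, 496 stacks with 38328 reads remained, 0.0558% (0.0553 to 0.0564) of all stack reads and 0.244% (0.241 to 0.246) of those outside miRNA precursors.

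SCARNA15 had nearly all of its reads in 1 stack of 69 bases at chr15:83424757-83424825 on the plus strand (build hg19). This stack held 98317 reads and ranked 15 among 500767 stacks outside miRNA precursors. It was 22.7 times as deep as the next stack of the set. The position lies in an intron of the non-coding gene RP11-752G15.6 and, on the other strand, in the 3′ UTR of FSD2. A second SCARNA15 stack at chr15:83424696-83424720 held 5 reads.

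Reads antisense to snoRNA genes were few. There were 15 such stacks with 19 reads, none deeper than 2, or 0.0139% (0.00837 to 0.0217) of the sense and antisense reads together. Without SCARNA15 the share was 0.0496% (0.0298 to 0.0774). The stacks over snoRNA genes thus lay almost wholly on the strand of the annotated RNA.

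After SCARNA15, the reads were spread over H/ACA genes of middle depth and a long series of shallow C/D genes. The next stack was that of SCARNA3, an RNA with a SCARNA symbol that the annotation puts in the H/ACA class, in an intron of the ubiquitin ligase gene RFWD2. It held 4325 reads at chr1:175937532-175937597. SNORA33, in the ribosomal protein gene RPS12, had 4124 reads at chr6:133138424-133138493. SNORA19, in the translation initiation factor gene EIF3A, had 3521 reads at chr10:120819519-120819586. These 3 H/ACA stacks were 66 to 70 bases long and lay close together in depth, far under SCARNA15. The deepest C/D stack was SNORD1A in SNHG16, with 2233 reads over 71 bases at chr17:74557717-74557787. No other C/D stack reached 1000 reads.

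**Figure D1:**
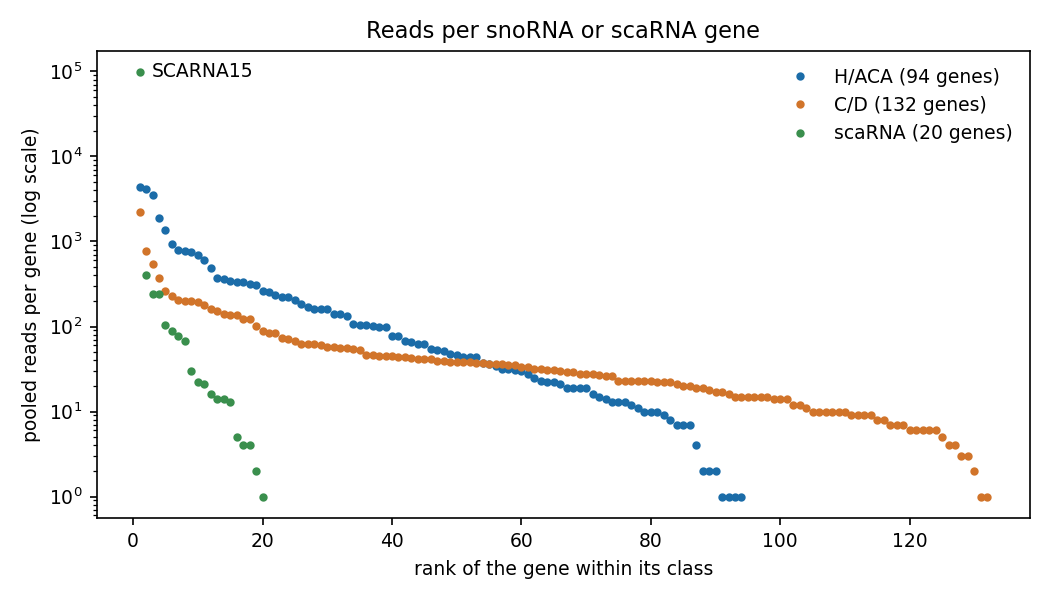
Pooled reads per gene (log scale) against the rank of the gene within its class, for 94 H/ACA, 132 C/D and 20 scaRNA genes; each point is 1 gene. SCARNA15 stands alone at 98322 reads, and the H/ACA points lie above the C/D points over the first ranks.

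Of the 246 genes, 206 had at least 10 reads, 61 at least 100 and 7 at least 1000. The 5 deepest stacks held 82.3% (82.14 to 82.54) of the reads and the 20 deepest 89.2% (89.06 to 89.39). Without SCARNA15 these shares were 40.1% (39.57 to 40.55) and 62.5% (61.97 to 62.94). At the other end, 58 stacks were a single read and 185 had 2 to 9 reads. These 2 kinds together made up nearly as many stacks as the 255 with at least 10 reads, which held 99.3% of the reads.

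The box class in the annotation gave 220 H/ACA, 212 C/D and 66 scaRNA stacks. H/ACA stacks held 27321 reads, C/D stacks 9638 and scaRNA stacks 99691. In shares of the reads this is 19.99% (19.78 to 20.21) for H/ACA, 7.05% (6.92 to 7.19) for C/D and 72.95% (72.72 to 73.19) for scaRNAs. The order of the classes turned when SCARNA15 was left out. H/ACA then held 71.28% (70.83 to 71.73), C/D 25.15% (24.71 to 25.58) and the other scaRNAs, with 1369 reads, 3.57% (3.39 to 3.76).

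H/ACA genes had more reads each than C/D genes, with a median of 52 against 29.5, and scaRNA genes had 21.5. At least 100 reads were found in 37 of 94 H/ACA, 19 of 132 C/D and 5 of 20 scaRNA genes. Longer and more strongly expressed RNAs give more reads, and neither the length nor the expression of the genes was used here to scale these counts, so they are not levels.

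The names split the set differently from the boxes. Stacks with ACA names numbered 143 and held 17573 reads in 62 genes, all of them H/ACA. The U-named group numbered 194 stacks and held 10567 reads, including 10 stacks with 64 reads that carry a SNORD symbol in place of a U name. Of the 184 with a U name, 131 with 5848 reads were C/D and 53 with 4655 reads were H/ACA, such as SNORA74A, which is U19. Stacks with SCARNA names numbered 65 and held 103816 reads, or 5494 without SCARNA15, of which 7 stacks with 4369 reads were H/ACA. The other names (HBII, snR, E2, E3 and the like) covered 96 stacks with 4694 reads. A U name therefore does not mark a C/D RNA in this annotation.

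**Figure D2:**
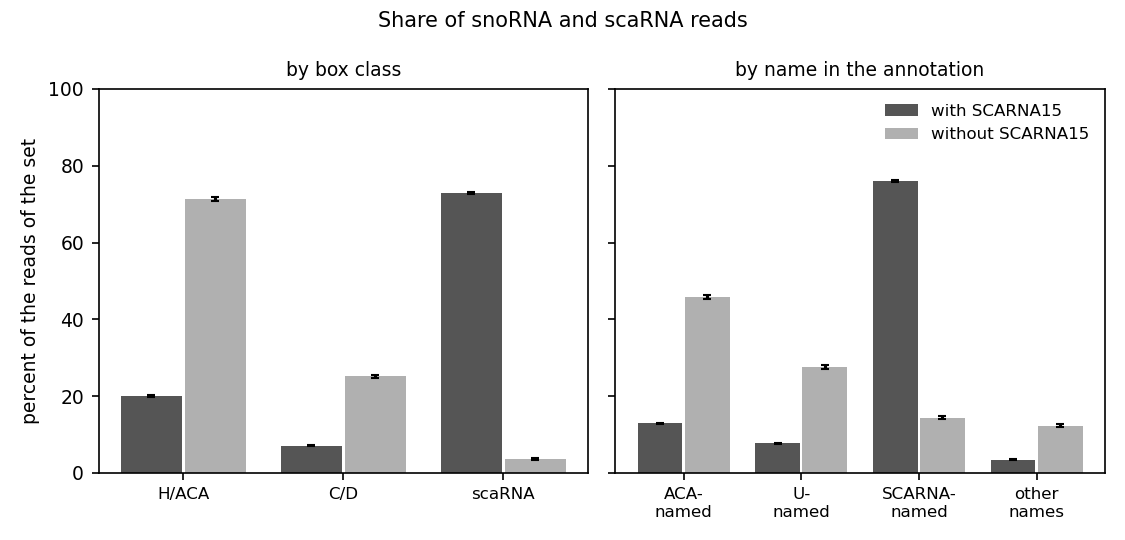
Percent of the reads of the set in each box class (left) and each group of names (right), with and without SCARNA15; error bars are exact 95% intervals for counting error. The scaRNA bar falls from 72.95% to 3.57% and the H/ACA bar rises from 19.99% to 71.28% when SCARNA15 is left out.

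Among ACA-named genes, the 5 with the most reads were SNORA33 with 4126, SNORA19 with 3521, SNORA32 with 1355, SNORA3 with 934 and SNORA17 with 782. They lie in RPS12, EIF3A, the transcription factor subunit gene TAF1D, the ribosomal protein gene RPL27A and the non-coding SNHG7. Among U-named genes the order was SNORA74A with 1882 reads, SNORA69 with 792, SNORD36A with 782, SNORD118 with 539 and SNORA64 with 373. Only SNORD36A and SNORD118 of these 5 are C/D RNAs. SNORD118 is the U8 snoRNA, needed for the maturation of the large ribosomal subunit RNAs. It gave the longest stack of the set, 253 bases at chr17:8076656-8076908, next to TMEM107.

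Among the other deep stacks, SNORA48 in EIF4A1 had 689 reads, SNORA28 in EIF5 had 584 and SNORA10 in RPS2 had 329. SNORA41 in EEF1B2 had 328 reads. SNORA56, with 440 reads at chrX:154003338-154003363, lies in DKC1, the gene of the pseudouridine synthase that H/ACA RNAs guide. SNORA51 lies in NOP56, the gene of a core protein of C/D particles, and had stacks of 428 and 317 reads. SNORD27, a C/D snoRNA in SNHG1, had 341 reads.

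Within the set, the scaRNAs other than SCARNA15 and SCARNA3 were shallow. SCARNA8 had 398 reads, SCARNA14 had 243 and SCARNA4 had 104. Below 100 reads came SCARNA6 with 89, SCARNA13 with 78, SCARNA2 with 67 and SCARNA5 with 30. A pair of stacks under the joint name of SCARNA22 and SCARNA23 held 32 reads. SCARNA16 had 22 reads in the set, SCARNA1 had 21, SCARNA9 had 16, SCARNA11 and SCARNA12 had 14 each and SCARNA10 had 13. Stacks outside the set held 2589 more reads of SCARNA16, over a miRNA entry. A stack of SCARNA27 with 523 reads was also outside it, for want of a snoRNA item. TERC, the RNA of telomerase, ends in an H/ACA domain and is listed with the scaRNAs. It had 244 reads in 8 stacks, the most stacks of any gene, and 221 of them lay in 1 stack of 47 bases at chr3:169482398-169482444.

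Most stacks of at least 10 reads were longer than a miRNA, and those of C/D genes were longer than those of H/ACA genes. Among stacks of at least 10 reads the median length was 52 bases for C/D, 35 for H/ACA and 34 for scaRNAs. A length of 30 bases or less was found in 25 of 119 C/D (21.0%), 45 of 114 H/ACA (39.5%) and 10 of 22 scaRNA stacks (45.5%). Over the set it was 31.4%, against 62.2% for all stacks of that depth in the list. The same share was 66.9% for stacks over miRNA precursors, 54.1% for Y and other scRNAs, 52.9% for rRNA, 33.3% for snRNAs, 22.9% for tRNAs and 6.25% for mitochondrial stacks. It was 63.4% for stacks of none of these classes. Stack length is the span of all its reads, so a long stack can hold short reads, and the read lengths themselves were not analysed here.

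Length grew with depth, which bears on these shares. The median was 22 bases for single reads, 30 for 2 to 9 reads, 41 for 10 to 99, 65 from 100 to under 1000 and 68 from 1000 up. Single reads, where stack and read are the same, ran from 15 to 28 bases. Among stacks of at least 100 reads, 14 of 38 H/ACA and 0 of 19 C/D were 30 bases or less. The H/ACA stacks among them included SNORA74A with 1100 reads over 29 bases, SNORA3 with 799 over 28, SNORA17 with 488 over 26 and SNORA56 with 440 over 26. The C/D stacks SNORD1A, SNORD36A and SNORD118 spanned 71, 73 and 253 bases.

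**Figure D3:**
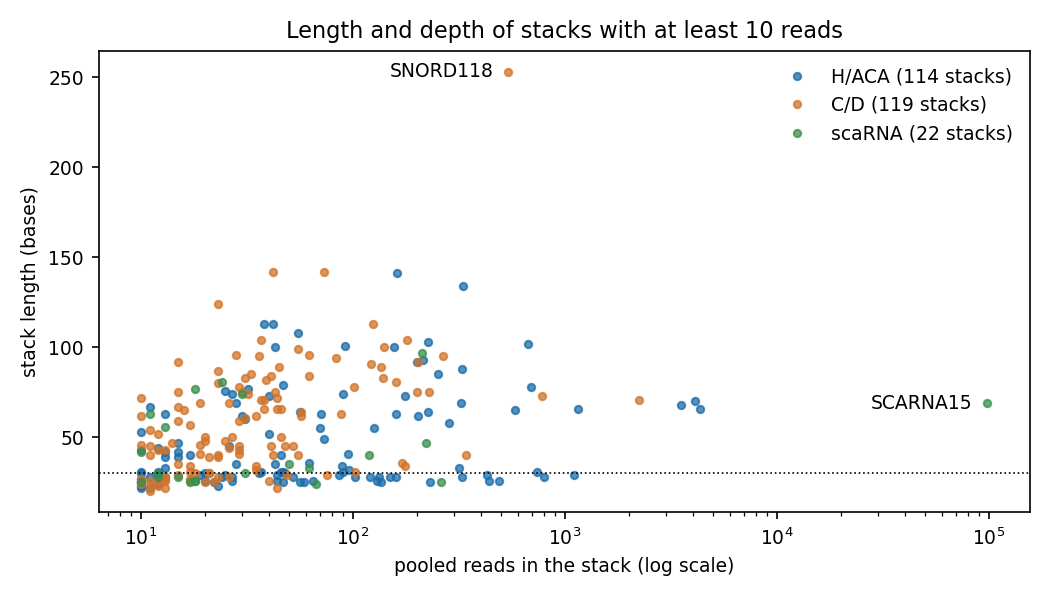
Stack length in bases against pooled reads (log scale) for the 255 stacks of at least 10 reads, coloured by box class; the dotted line is at 30 bases. Beyond 100 reads the points under the line are H/ACA with 1 scaRNA stack, and no C/D point lies there.

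The score in the list, an entropy of the reads of a stack whose formula the sources used here do not give, was higher where reads were spread over a longer span. Among stacks of at least 100 reads it was highest for SNORD118 at 2.098, SCARNA14 at 1.97, SNORA7A at 1.96, SNORA52 at 1.95 and SNORA10 at 1.77. These stacks were 97 to 253 bases long. It was lowest for SNORA26 at 0.140, SCARNA8 at 0.177, SNORA50 at 0.194, SNORA56 at 0.199 and SNORA61 at 0.1995. All 5 of those were 25 or 26 bases long. SCARNA15 stood at 0.824 with its 69 bases.

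Many H/ACA genes held 2 or more separate stacks in a row. Of the genes with at least 100 reads, 24 of 37 H/ACA, 4 of 19 C/D and 3 of 5 scaRNA genes had at least 2 stacks of 10 reads or more. A gene's deepest stack held a median of 89.1% of its reads in H/ACA genes and 100% in C/D genes. SNORA17 had 4 stacks of 28, 26, 25 and 28 bases in order from 5′ to 3′, with 133, 488, 59 and 102 reads. The gaps between them were 14, 2 and 12 bases. SNORA3 had 799, 125 and 10 reads in this order, and SNORA63, the E3 snoRNA, had 325, 27 and 13, so both were deepest in the first stack. In SNORA74A the first stack was the shallowest, with 42 reads over 113 bases followed by 1100 and 740 over 29 and 31 bases.

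Over all 54 genes with at least 2 stacks of 10 reads or more, the deepest stack was the first in 22, the last in 23, in the middle in 7 and tied in 2. In the 31 H/ACA genes it was the first in 15, the last in 12 and in the middle in 4, and in the 17 C/D genes the first in 6 and the last in 10, with 1 tie. Neither end was thus the deeper one throughout. The first stack was 30 bases or less in 19 of the 31 H/ACA genes and the last in 7. The median gap over 67 gaps was 12 bases, from 1 to 152, and 48 gaps were 20 bases or less.

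**Figure D4:**
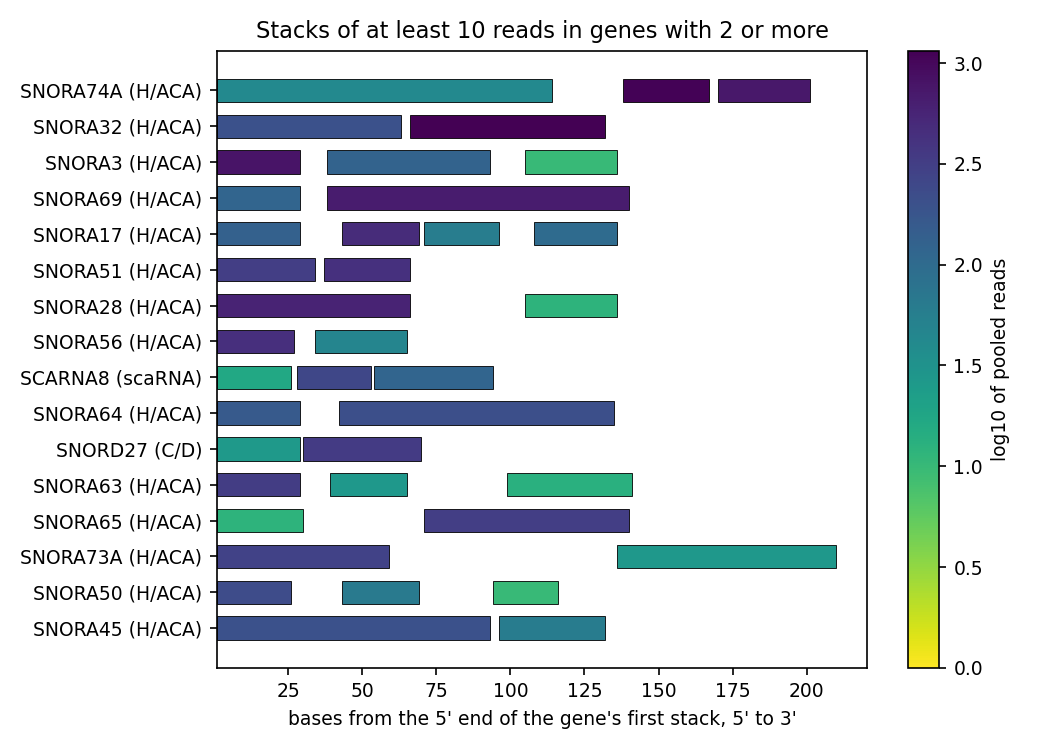
Stacks of at least 10 reads in the 16 genes with the most reads among those with at least 2 such stacks; the horizontal axis gives bases from the start of the first stack, 5′ to 3′, and the colour gives log10 of the pooled reads. Short first stacks are seen in SNORA3, SNORA69 and SNORA17, and the deepest stacks of SNORA74A lie after its long first stack.

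SCARNA8, a scaRNA in an intron of HAUS6, had 3 such stacks with 17, 259 and 119 reads over 25, 25 and 40 bases, with gaps of 2 and 1 bases. SCARNA2, the longest span among the scaRNAs at 416 bases, had 18, 10 and 18 reads. SCARNA13 had 11, 50 and 15. The ends of the genes in hg19 were not used here, so a first stack need not start at the end of the RNA.

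The list also counts edits per stack, a field whose meaning its source does not state and which is taken here as named. Among the 62 stacks of at least 100 reads the median was 0.151 edits per read, with quartiles at 0.127 and 0.166, and 56 lay between 0.1 and 0.25. The exact Poisson 95% interval of a stack held this median in 51 of 62. SCARNA15 stood close to it at 0.164 (0.162 to 0.167). For all stacks of at least 10 reads in the list the median was 0.1415, and for those of the set 0.15.

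SCARNA3 and SNORD1A stood apart from the rest. SCARNA3 had 2555 edits in 4325 reads, or 0.591 per read (0.568 to 0.614), the highest of the 62. SNORD1A had 52 edits in 2233 reads, 0.0233 per read (0.0174 to 0.0305), the lowest. After SCARNA3 came SNORA78 at 0.231 (0.163 to 0.319), SNORD68 at 0.1935, SNORD83B at 0.191 and SNORA3 at 0.184. After SNORD1A came SNORD36A at 0.0831 (0.0642 to 0.106), SNORA51 at 0.0888, SNORA61 at 0.0889 and SNORD15A at 0.0909. The intervals of SCARNA3 and SNORD1A overlapped with those of none of these. At which bases the edits counted in this field lie, and what gave rise to them, was not analysed here.

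**Figure D5:**
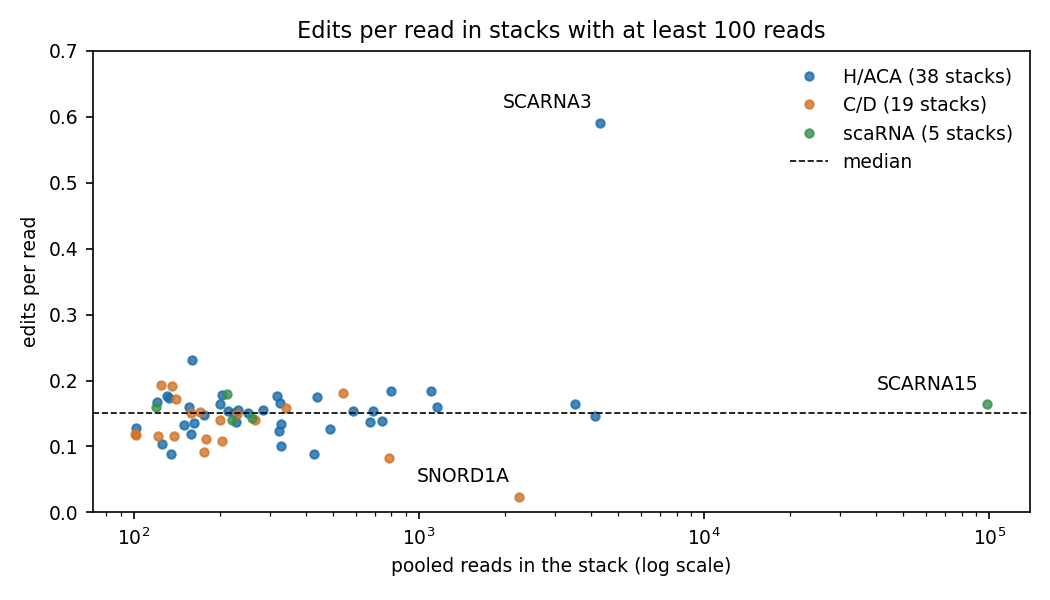
Edits per read against pooled reads (log scale) for the 62 stacks of at least 100 reads, coloured by box class; the dashed line is the median of 0.151. SCARNA3 lies at 0.591, SNORD1A at 0.0233, and SCARNA15 close to the line at 0.164.

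Host genes were named for most of the set. An intron item was present in 476 of 498 stacks (95.6%), and a coding transcript in 349 (70.1%), which held 77.9% (77.47 to 78.31) of the reads without SCARNA15. Hosts that encode ribosomal proteins covered 102 stacks in 56 snoRNA genes with 11443 reads, 29.9% of the reads without SCARNA15. The non-coding SNHG hosts and GAS5 covered 80 stacks in 40 genes with 7844 reads, 20.5%. Some of these stacks also carry a coding transcript, such as those of SNORA74A under MATR3 and SNHG4. This share therefore overlaps with that of coding transcripts.

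Of 30 host genes listed for this purpose, 25 had stacks of the set, 148 in 81 snoRNA genes with 10244 reads. These were 26.7% of the reads without SCARNA15. Deeper genes lie in hosts outside the list, such as SCARNA3 in RFWD2 with 4329 reads and SNORA19 in EIF3A with 3521. Among the listed hosts TAF1D had the most, 1538 reads in 19 stacks of 8 snoRNAs, of which SNORA32 held most. RPL7A had 1026 reads over 4 C/D snoRNAs, led by SNORD36A. NOP56 had 990 over 5 snoRNAs, EIF4A1 had 912 over 3, EIF4A2 had 844 over 4 and SNHG7 had 805 over 2. SNHG1 and GAS5, which carry rows of C/D snoRNAs in their introns, had 759 reads over 8 snoRNAs and 647 over 10. DKC1 had 494 over 2. Reads differed between the snoRNAs of a host: in GAS5 the deepest stack, that of SNORD77, had 203 of 647 reads, and in SNHG1 that of SNORD27 had 341 of 759.

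The listed hosts with no stack of the set were HSPA8, SNURF, SNRPN, MEG8 and CWF19L1. No stack of the set carried the name of a snoRNA of the imprinted regions, that is SNORD113 to SNORD116, SNORD107, SNORD108, SNORD109 or SNORD64. A count of 0 allows up to 3 reads, or 0.002195% of the reads of the set. The SNORD113 to SNORD116 families consist of many near-identical copies. The sources used here do not say how reads that match several places were treated, and their part in these zeros was not tested. Reads of other close copies, such as SNORA7A with 227 reads in its deepest stack and SNORA7B with 225, are uncertain as their own for the same reason.

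The annotation also left some snoRNA genes outside the set. There were 80 further stacks with 2797 reads under 39 names or pairs of names of snoRNA or scaRNA genes that carried no snoRNA item. The deepest were SCARNA27 with 523 reads, a SNORA74 locus on chromosome 5 with 513 and a SNORA7 locus on chromosome X with 367, chosen here after their values were seen. HSPA8 is the host of SNORD14C and SNORD14E, which had 57 and 123 reads in stacks that carry an snRNA repeat item and no snoRNA item. A locus on chromosome 6 also named SCARNA15 had 70 reads and no snoRNA item.

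Where a miRNA entry lies in a snoRNA gene, the stacks went to the entry and not to the set. There were 13 such stacks in 7 genes with 14389 reads. SNORA36B, which holds mir-664a, had 11439 of these, of which 10455 lay in 1 stack of 35 bases at chr1:220373881-220373915. That stack was deeper than any in the set except SCARNA15. SCARNA16, which holds mir-6516, had 2589 reads there against 22 in the set, so that nearly all of its reads lay over the entry. SNORA36A, in DKC1, had 282 over mir-664b. SNORA81 had 28 over mir-1248, SNORA84 had 25 over mir-3651, SNORA34 had 22 over mir-1291 and SNORD125, the only C/D gene among them, had 4 over mir-3653.

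The miRNA tables are the only files that separate AGO2 from AGO3, and they ask whether snoRNA-derived entries were held differently. The AGO2 library had 6674064 reads with 3485257 counted on precursors, and the AGO3 library 4667236 with 3055417. In the list of 12 snoRNA-derived entries, mir-664 had 169 counts in AGO2 and 119 in AGO3, or 48.5 and 38.95 CPM when scaled to all precursor counts of the library. Its log2 ratio of AGO3 over AGO2 was −0.32 (−0.67 to 0.03), within counting error. Scaled by TMM it was −0.48 (−0.83 to −0.13), an interval that leaves out equal shares, and by median of ratios −0.40 (−0.75 to −0.05), so the reading turns on the scaling.

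No other entry of the list had more than 3 counts in a library. The counts in AGO2 and AGO3 were 3 and 3 for mir-1291, 3 and 0 for mir-1248, mir-3651 and mir-3607, and 1 and 0 for mir-3653. The remaining 6 names, among them mir-664a and mir-664b, were in neither table. Whether the mir-664 counted here and the mir-664a named in the stacks are the same entry was not examined. The absence of the name mir-664a thus does not show that its hairpin had no counts. Adding up the whole list gave 182 counts against 122, mostly from mir-664. The log2 ratio was −0.39 (−0.73 to −0.05) when scaled to all precursor counts. At this scaling the interval of mir-664 alone, −0.67 to 0.03, held equal shares. That of the sum left them out only with the 13 and 3 counts of the other entries. For comparison, 411 precursors reached 100 counts when both libraries were added, and 101 of these (24.6%) differed by 2-fold or more. The only entry of the list with that many counts, mir-664, was not among them. The list does not hold mir-6516, which lies in SCARNA16, and its AGO2 and AGO3 counts were not examined here.

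Marker miRNAs of cells other than a kidney line were low in both libraries. Together the 14 markers had 3093 AGO2 counts (0.0888%) and 2763 AGO3 counts (0.0904%). Most came from mir-9-1, with 2241 and 2175, and mir-124-1, with 603 and 319, both known from neurons. The blood marker mir-142 had 197 and 184 counts, and the blood marker mir-223 was at 0 in both. The pluripotency marker mir-302d was at 0 in both, and mir-302a, mir-302b and mir-302c had at most 1 count in a library. The part of the marked cells in the snoRNA reads was not tested.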

How the data were processed

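Small RNA from FLAG pull-downs of AGO2 or AGO3 was read in 1 library each. The deposited stack list gives whole-number counts of reads per stack, its position, strand, annotation and edits, and a score that equals its entropy field. The list names a PAR-CLIP script as its source, and the submitters' processing notes name Bowtie2 2.1.0 and build hg19 without saying what each was used for. The sources used here do not say which libraries the list holds. The deposited miRNA tables hold raw counts per precursor, per the file headers with totals of reads.

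From these files, stacks were taken by annotation, put in box classes from the snoRNA item (H/ACA, C/D, scaRNA), and summed per gene. Groups by name followed a planned rule that took every U or SNORD name as C/D; the box item showed otherwise, so both are given. Gene models of hg19 were not used here, so the planned position of stacks within genes could not be computed; the order of stacks was described instead. Log2 ratios used shares of precursor counts, a pseudocount of 0.5 scaled to library size and exact 95% intervals. A log2 ratio with an unscaled pseudocount of 0.5 was tested on simulated counts, and the intervals were not.

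Stacks named are the 20 deepest, those with SCARNA names and at least 10 reads, the 5 deepest genes of ACA and of U names, and the 5 highest and lowest by edits per read and by entropy from 100 reads up. Any others were picked once their values were known. The members, the lists (snoRNA-derived entries, host genes, marker miRNAs) and the rule were chosen with earlier results of these data known. Alternatives left out SCARNA15 or shallow stacks, changed the rule for members or names, and scaled the miRNA counts by TMM and median of ratios (edgeR 4.0.16 in R 4.3.3). Tables, intervals and plots were made with scipy 1.17.1, pandas 2.3.3, numpy 2.4.6 and matplotlib 3.10.9 in Python 3.11.15.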

Additional observations from a re-analysis of the deposited data

How the results depend on the processing

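Without SCARNA15, the share of the set in all stack reads went from 0.199% to 0.0558%, that of H/ACA in the set from 19.99% to 71.28%, of C/D from 7.05% to 25.15%, of scaRNAs from 72.95% to 3.57%, of ACA names from 12.86% to 45.85%, of U names from 7.73% to 27.57% and of SCARNA names from 75.97% to 14.33%. The deepest stack then held 11.3% and the deepest 10 held 50.8%, against 71.95% and 85.7% with it. Keeping stacks that also name a miRNA precursor raised the share of the set to 0.220%. With stacks of at least 10 reads only, C/D held 6.82%, scaRNAs 73.3%, U names 7.55% and SCARNA names 76.4%. As shares of stacks, not reads, an alternative chosen after seeing the data, H/ACA made up 44.2%, C/D 42.6%, scaRNAs 13.3%, ACA names 28.7%, U names 39.0% and SCARNA names 13.1%. With groups by alias alone, also chosen after seeing the data, ACA names held 85.0%, U names 8.37% and SCARNA names 0%, since no alias in the set starts with SCARNA and that of SCARNA15 is ACA45. Summed per gene name, the deepest 10 held 86.6%. In stacks of at least 100 reads, median lengths rose to 62.5 bases for H/ACA and 81 for C/D, and median entropy rose to 0.738 for H/ACA, 1.19 for C/D and 0.765 for scaRNAs. Of 52 alternative values, 23 were rated the same as the value reported and 29 as moved. Shares and the log2 ratio were rated by the interval of the value reported. Medians and the number of entries past the minimum have no such interval and were rated without one. The log2 ratio of mir-664 stayed below 0 under each of its alternatives.

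No paired analysis was possible because each protein has 1 library and the stack list does not separate libraries. For the same reason no replicate was left out. Shallow stacks limit most of the set: 243 of 498 stacks had under 10 reads, and edits per read were named only from 100 reads up. The planned place of stacks relative to gene ends was not run, since gene models of hg19 were not used here.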
